A study of Canis lupus familiaris with 33 samples.

Results

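The ubiquitin-specific proteases (USPs) are the largest family of deubiquitinases, cysteine proteases that cut ubiquitin from other proteins or from ubiquitin chains. By taking off the tag that sends a protein to the proteasome, or that changes its place or partners, they set how long many regulators last, among them p53, its ligase MDM2, histones and proteins of the NF-κB pathway. In lymphoid tissue, members such as USP9X, which stabilises the survival protein MCL1, and USP1, which acts in DNA repair, have been studied in B-cell cancers. All probesets with a single gene symbol of the form USP plus a number, with or without a letter, were taken as members, except those of USP18, which removes ISG15 rather than ubiquitin. This gave 118 of the 43035 probesets on the array, and they named 44 genes, of which 36 had at least 2 probesets and 8 had 1.

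The values were RMA log2 signals of lymph node RNA from pet dogs with diffuse large B-cell lymphoma (DLBCL), an aggressive B-cell tumour, and of nodes of dogs without lymphoma, on 33 Affymetrix canine arrays. The naive group held 16 DLBCL arrays from dogs with no earlier chemotherapy, aged 2.7 to 13.3 years. The relapsed group held 7 arrays, taken at widely differing times since treatment, from dogs aged 6.4 to 11.8 years. These dogs had been treated with protocols given as CHOP, GS, Dox/Pred, Dox/Cytoxan/Pred or CCNU/L-Aspar/Pred. The DLBCL arrays came from 22 dogs of many breeds, 13 male and 9 female, neutered dogs included, and 1 dog gave an array to both groups. The healthy nodes came from 7 dogs euthanized for conditions other than lymphoma, with no age, sex or breed given, and 4 of the 10 healthy arrays were of the same dog, called here healthy dog 1. Arrays of a dog were averaged, except where naive and relapsed tumours are given apart. In a probeset name the ending s_at marks probes that match more than 1 transcript.

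The RNA integrity number (RIN) was 8.9 to 10 in DLBCL dogs and 5.8 to 9.15 in healthy dogs, so that RNA quality and group were nearly the same split. Of 6 B-cell markers 2 were called higher in DLBCL and 0 lower. The brightest was CD79A, part of the B-cell receptor, at a mean of 13.0 in DLBCL and 12.3 in healthy dogs. The dimmest was PAX5, at 6.06 and 5.95. Called lower were 6 of 8 T-cell and 3 of 6 macrophage markers, and called higher were 6 of 6 mitosis genes. Of 6 stroma markers 1 was higher and 1 lower, and of 3 neutrophil markers 0 were called. The mean of the 8 T-cell markers was 7.19 to 10.2 in DLBCL dogs and 10.6 to 11.8 in healthy dogs, and that of the 6 mitosis genes 9.32 to 11.4 and 7.87 to 10.1. Fewer cells of a type and less RNA per cell cannot be told apart in such bulk tissue. The part of RIN, T cells and dividing cells in the differences from healthy nodes was not tested beyond the values given here. Counts are also given without DLBCL samples 5 and 18, a choice made after results were known, for which no criterion is given here.

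The family was selected on the DLBCL and healthy values, in which 1 USP9X probeset stood out, so that contrast is described here and nothing is inferred from its calls. A probeset was called where limma's adjusted p was under 0.05 over all 43035 probesets. In DLBCL 30 of the 118 members were called higher (25.4%) and 10 lower (8.47%), beside 19% and 13.6% of all probesets. Values were higher in DLBCL for 83 members, with a median of 0.16 against 0.06 over all probesets. The difference was less than 0.2 log2 units for 53 members and more than 0.5 for 20. A difference of more than 2-fold was seen in 1 member upwards, of USP14, and 1 downwards, annotated as USP9X, beside 1.77% and 4.46% of all probesets. Probeset names follow the array's annotation, and which transcript region the USP9X probeset matches was not examined. Of the 44 genes, 17 had a probeset called higher and 7 one called lower. A gene with more probesets has more chances of a call, and this share was not worked out over all genes. With RIN as a covariate 1 member remained called higher, of USP1, and 1 lower, of USP9X, and the shares over all probesets were then 0.579% and 1.16%. Without DLBCL samples 5 and 18 the counts were 34 and 11, and without healthy dog 4 they were 26 and 5.

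**Figure D1:**
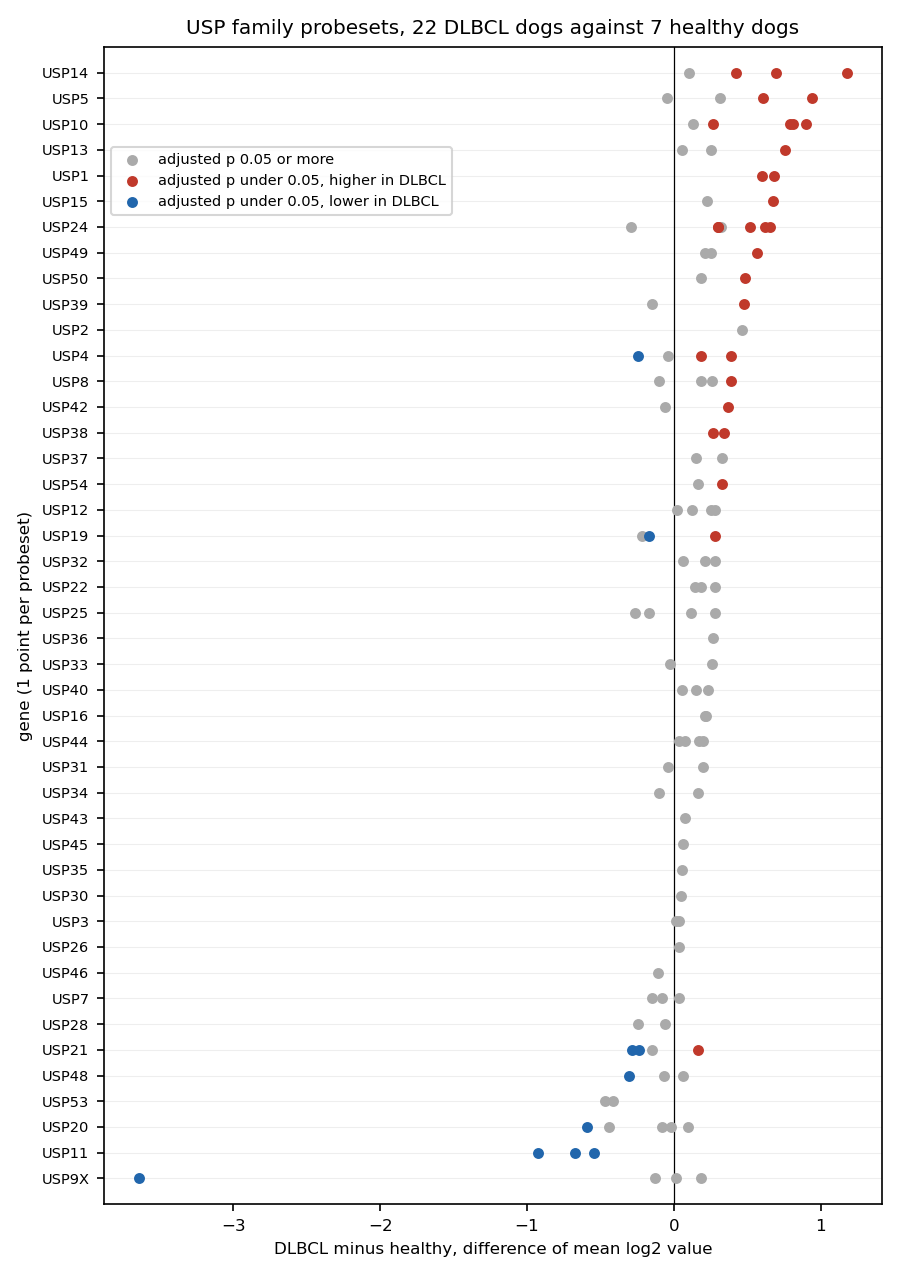
Difference of the mean log2 value between 22 DLBCL and 7 healthy dogs (horizontal axis) for the 118 probesets of 44 USP genes (vertical axis, 1 point per probeset). Points are coloured where the adjusted p was under 0.05, red for the 30 higher and blue for the 10 lower in DLBCL. The USP9X row holds 1 point at -3.64 and 3 points near 0, and probesets of many other genes are also spread.

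USP9X is an X-linked enzyme of endosomes, cell polarity and apoptosis, and its 4 probesets did not move together. On probeset Cfa.5320.1.A1_at the log2 value in healthy dogs had a lowest, median and highest value of 8.97, 10.4 and 10.7. In naive arrays these were 5.67, 6.48 and 8.25, and in relapsed arrays 6.22, 6.88 and 7.31. All 22 DLBCL dogs were below all 7 healthy dogs on it, by a mean of -3.64 ± 0.25 (SE), or 12.5-fold on the linear scale. With RIN as a covariate the difference was smaller, at -2.60 ± 0.50. The lowest healthy value was that of healthy dog 1, whose 4 arrays read 8.77 to 9.19, while the other healthy dogs were between 10.1 and 10.7.

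The other 3 USP9X probesets overlapped between groups. On Cfa.1945.3.A1_at the mean was 5.37 ± 0.19 (SD, n = 7) in healthy and 5.55 ± 0.25 (SD, n = 22) in DLBCL dogs. On Cfa.2884.1.A1_at the means were 4.95 ± 0.52 and 4.82 ± 0.79, and on Cfa.8952.2.A1_at 3.81 ± 0.17 and 3.82 ± 0.19. The array's 17 tag control probesets, which match no dog gene, had means of 2.79 to 4.56, so that Cfa.8952.2.A1_at lay within that range and Cfa.2884.1.A1_at just above it. In the 22 DLBCL dogs the correlation of Cfa.5320.1.A1_at with each of the others was -0.27, 0.03 and -0.04, given as a description. The mean of the 4 probesets differed by -0.89 ± 0.11 (SE).

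**Figure D2:**
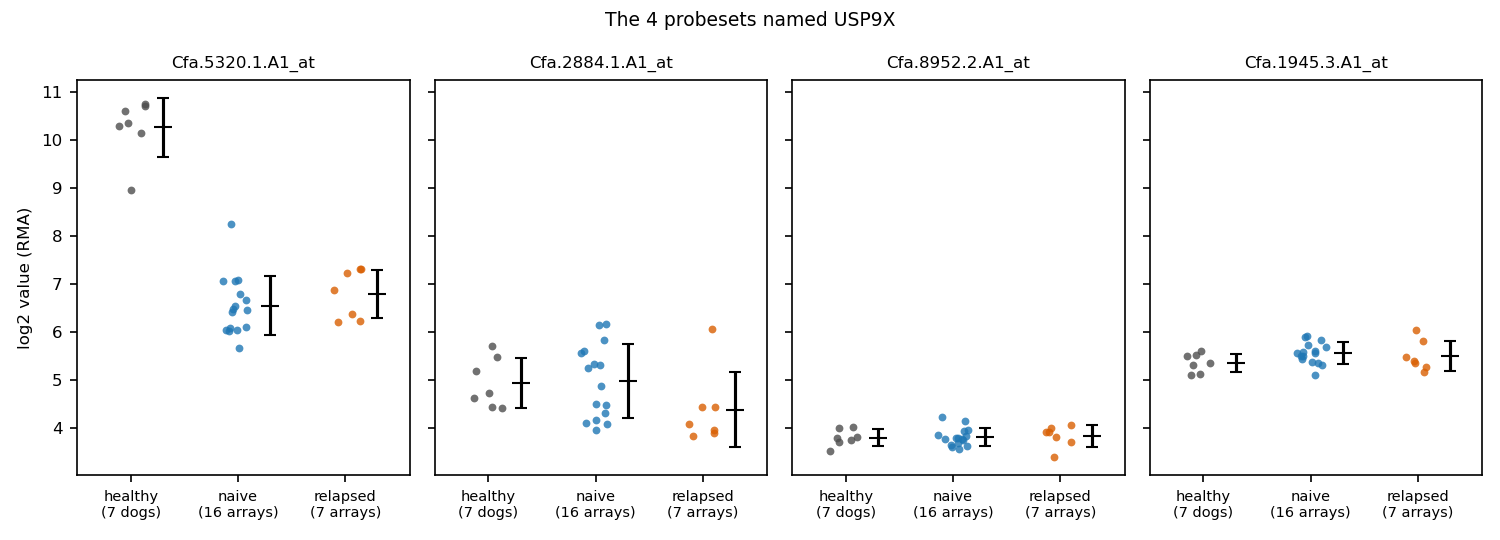
Log2 value (vertical axis) of the 4 USP9X probesets in 7 healthy dogs, 16 naive and 7 relapsed arrays (points), with the mean and SD as bars. On Cfa.5320.1.A1_at every DLBCL array lies below the healthy dogs, and on the other 3 probesets the groups overlap.

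Values of Cfa.5320.1.A1_at were also set beside the T-cell markers, dog by dog. Healthy dog 1, the lowest healthy dog on this probeset, had a T-cell marker mean of 10.6, below the 11.3 to 11.8 of the other healthy dogs, and also the highest healthy RIN, 9.15. Among the 22 DLBCL dogs the probeset changed by 0.58 ± 0.13 (SE) log2 units per unit of the T-cell mean, with an unadjusted p of 0.000173. After adjustment over all probesets by limma the p was 0.098, which misses the threshold. Without the 2 dogs farthest from the median of the T-cell mean the slope was 0.48 ± 0.16 (adjusted p = 0.711 by limma). Slopes of the other 3 USP9X probesets were 0.24 ± 0.23, -0.08 ± 0.08 and 0.00 ± 0.06. No member passed this test, beside 0.116% of all probesets called with a rising and 0.0% with a falling slope, and 15 of 118 members had an unadjusted p under 0.05, beside 8.66% of all probesets. The next smallest p was that of USP12 on Cfa.6853.2.S1_at, with a slope of -0.20 ± 0.05 (adjusted p = 0.21 by limma).

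**Figure D3:**
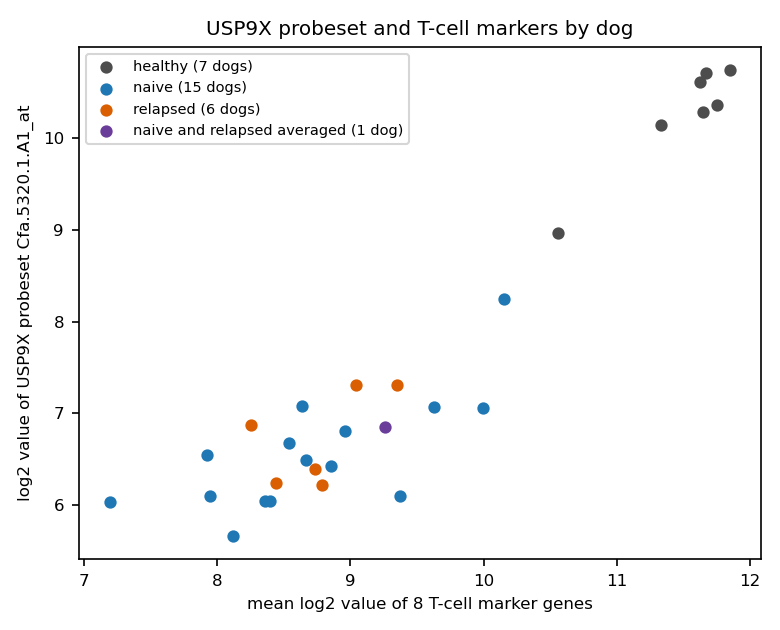
Log2 value of USP9X probeset Cfa.5320.1.A1_at (vertical axis) against the mean log2 value of 8 T-cell marker genes (horizontal axis), 1 point per dog, coloured by group. The 7 healthy dogs lie at T-cell means of 10.6 to 11.8, and the 22 DLBCL dogs at 7.19 to 10.2.

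The enzymes of the proteasome and of free ubiquitin were USP14, USP5 and USP13. USP14 is a reversible proteasome subunit that trims chains from substrates, and USP5, a close relative of USP13, disassembles unanchored chains. Of their 11 probesets 6 were called higher and 0 lower, beside 19% and 13.6% of all probesets. Their median difference was 0.42, and the next highest of the role lists was that of the cell cycle, at 0.33. The lists were chosen with earlier results known, so this order is a description only. USP14 on Cfa.17913.1.S1_s_at had a lowest, median and highest value of 6.35, 6.88 and 7.23 in healthy dogs and of 7.56, 8.10 and 8.67 in DLBCL dogs. The groups did not overlap, and the difference of 1.18 ± 0.12 (SE) was a 2.26-fold rise. They did not overlap either on USP14 probesets CfaAffx.28036.1.S1_s_at, at 0.70 ± 0.08, and Cfa.3305.1.S1_at, its probeset of highest mean, at 0.42 ± 0.06. On the remaining USP14 probeset, CfaAffx.28036.1.S1_at, it differed by 0.11 ± 0.17, without a call.

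USP5 rose on 2 of 4 probesets. On Cfa.17427.1.S1_s_at it was 5.67, 6.63 and 6.88 (lowest, median, highest) in healthy and 6.62, 7.53 and 8.09 in DLBCL dogs, and 19 of the 22 tumours exceeded the highest healthy value. The difference was 0.94 ± 0.15 there and 0.60 ± 0.12 on CfaAffx.22525.1.S1_s_at, where 20 dogs were above. The remaining USP5 probesets differed by 0.31 ± 0.13, on the probeset of highest mean, and by -0.05 ± 0.17, without a call. USP13 rose on 1 of 3 probesets, Cfa.17655.1.S1_s_at, by 0.76 ± 0.19. The other 2 differed by 0.06, on the probeset of highest mean, and by 0.25.

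Among the 7 measured genes of DNA damage and p53 control, 7 of 18 probesets were called higher and 3 lower. Of all probesets 19% and 13.6% were so called, and the median of this list was 0.05. The calls came from USP1, USP10, USP11 and USP42, several of them on probesets of the same gene. USP1, which removes ubiquitin from FANCD2 and PCNA, was called higher on both probesets. On CfaAffx.28718.1.S1_at its lowest, median and highest values were 8.41, 8.94 and 9.19 in healthy and 9.0, 9.48 and 9.98 in DLBCL dogs, a difference of 0.68 ± 0.10. On this probeset 21 of 22 DLBCL dogs lay above the healthy range, and with RIN as a covariate the difference was 0.85 ± 0.22. USP10, which stabilises p53 in the cytoplasm, was called higher on 4 of 5 probesets. On CfaAffx.30526.1.S1_s_at it was 8.47, 8.63 and 8.90 in healthy and 8.76, 9.60 and 9.95 in DLBCL dogs, a difference of 0.90 ± 0.10, with 21 of 22 dogs above. The other called USP10 probesets differed by 0.81, 0.79 and, on the probeset of highest mean, 0.26, and the uncalled one by 0.13 ± 0.10.

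USP11, an X-linked enzyme of homologous recombination repair, went the other way and did so on all of its 3 probesets. On Cfa.3886.1.A1_at its lowest, median and highest values were 10.7, 10.9 and 11.1 in healthy dogs and 9.40, 10.1 and 10.5 in DLBCL dogs. All 22 DLBCL dogs were below, by -0.92 ± 0.11. On CfaAffx.23104.1.S1_at and CfaAffx.23104.1.S1_s_at the differences were -0.67 ± 0.11 and -0.55 ± 0.11, with 21 of 22 dogs below on each. In the DLBCL dogs these 3 probesets had pairwise correlations of 0.87 to 0.95. USP7, the protease of MDM2 and p53, was not called on any of 3 probesets, which differed by -0.15 to 0.04. USP28 was not called on either of 2, and USP42 was called higher on 1 of 2, by 0.37 ± 0.12.

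**Figure D4:**
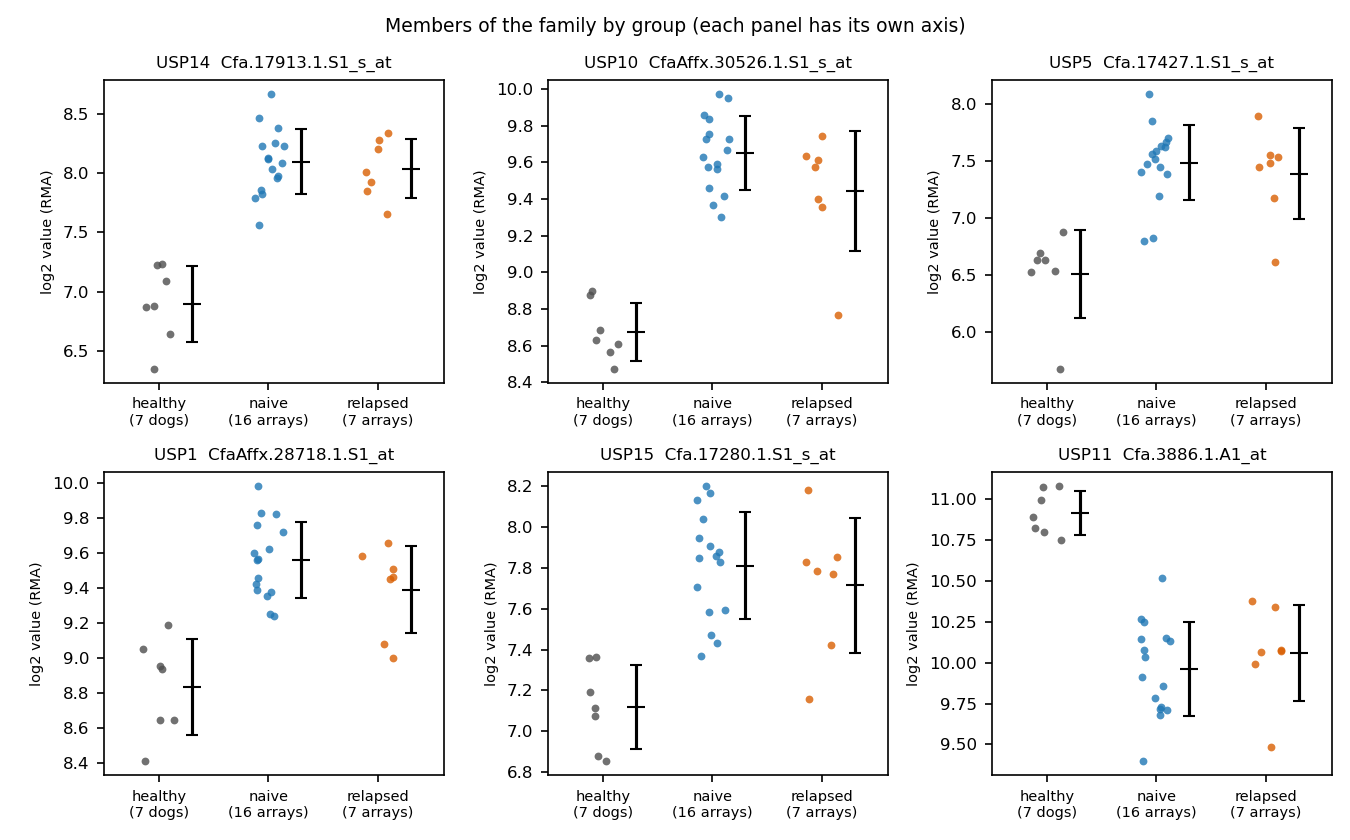
Log2 value (vertical axes, a separate scale per panel) of 1 probeset each of USP14, USP10, USP5, USP1, USP15 and USP11 in 7 healthy dogs, 16 naive and 7 relapsed arrays (points), with the mean and SD as bars. Most DLBCL arrays lie above all healthy dogs in the first 5 panels, and all lie below them for USP11.

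Of the members in immune and NF-κB signalling, 3 of 11 probesets were called higher and 2 lower, beside 19% and 13.6% of all probesets. Their median difference was 0.06. USP15, which acts on TGF-β receptor signalling and MDM2, was 6.85, 7.11 and 7.36 (lowest, median, highest) in healthy and 7.37, 7.83 and 8.20 in DLBCL dogs on Cfa.17280.1.S1_s_at. All 22 DLBCL dogs were above, by 0.68 ± 0.11, although 1 relapsed array, of the dog sampled at both times, read 7.16. Its second probeset, the one of highest mean, differed by 0.23 ± 0.10 without a call. USP48, known to act on the p65 subunit of NF-κB, was called lower on 1 of 3 probesets, by -0.30 ± 0.06 on Cfa.10093.1.A1_at, and differed by -0.06 and 0.06 on the others. USP31 was not called. USP4, a regulator of TRAF and TGF-β receptor signalling, was called in both directions. It was lower by -0.25 ± 0.08 on Cfa.12988.1.A1_at, higher by 0.39 ± 0.11 on Cfa.18425.1.S1_s_at and by 0.18 ± 0.07 on CfaAffx.18013.1.S1_s_at, and differed by -0.04 ± 0.17 on Cfa.5884.1.A1_at. The lower call was lost without healthy dog 4, and the call at 0.18 was lost on leaving out any 1 healthy dog but dog 5.

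Of the genes acting on histones and chromatin, 24 probesets of 9 genes were measured, with a median difference of 0.17. Of these 2 were called higher and 2 lower, beside 19% and 13.6% of all probesets. USP22, the deubiquitinase of the SAGA coactivator, differed by 0.15 to 0.28 on 3 probesets, USP16, which acts on histone H2A, by 0.21 and 0.22, and USP3 by 0.01 and 0.04, all without a call. USP49 was called higher on 1 of 3 probesets, by 0.57 ± 0.15. USP21 was called lower by -0.29 ± 0.09 and -0.24 ± 0.08 and higher by 0.16 ± 0.06, the last on CfaAffx.19817.1.S1_s_at, and its remaining probeset differed by -0.15 ± 0.10. The call at 0.16 was lost without any 1 of healthy dogs 1, 2, 3, 5, 6 and 7, the call at -0.24 without dog 2, 4 or 5, and the call at -0.29 without dog 4.

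Members placed at membranes and organelles had 2 of 26 probesets called higher and 3 lower, beside 19% and 13.6% of all probesets. Their median difference was 0.03. USP8, which sorts receptors at endosomes, was called higher on 1 of 4 probesets, by 0.39 ± 0.09. USP20, which acts on the von Hippel-Lindau pathway, was called lower on 1 of 5, Cfa.10095.1.A1_s_at, by -0.59 ± 0.20. There the DLBCL dogs spread from 9.10 to 12.0 around a healthy range of 10.6 to 11.2, and the call was lost without healthy dog 2, 3 or 4. USP19, an enzyme with an endoplasmic reticulum form, was called higher by 0.28 ± 0.08 on Cfa.21495.1.S1_s_at and lower by -0.17 ± 0.06 on CfaAffx.18105.1.S1_s_at. Its lower call was lost without healthy dog 3, 4 or 7, and its remaining probeset differed by -0.22 ± 0.10. USP25, USP30, USP32 and USP33 were not called.

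Outside these lists, USP24, a large enzyme linked to p53 and MCL1 stability, was called higher on 5 of 7 probesets, by 0.30 to 0.65. On Cfa.16692.1.S1_s_at it was 8.00, 8.25 and 8.72 in healthy and 8.13, 8.92 and 9.62 in DLBCL dogs (lowest, median, highest), and 18 of 22 dogs were above all healthy dogs. Of its remaining 2 probesets, Cfa.5395.1.A1_at differed by -0.29 ± 0.12 and CfaAffx.28976.1.S1_at by 0.32 ± 0.16. USP38 was called higher on both probesets, by 0.34 and 0.26. USP39, a spliceosome protein with no protease activity, was called higher by 0.48 ± 0.10 on 1 probeset and differed by -0.15 ± 0.07 on the other. USP50 was called higher on 1 of 2 probesets, by 0.49 ± 0.15, and USP54 on 1 of 2, by 0.33 ± 0.12.

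Those named above included, 23 genes had no call. USP53, a scaffold of cell junctions, had the lowest differences among them, at -0.47 ± 0.26 and -0.41 ± 0.17. USP2, on its 1 probeset, was 5.10, 5.39 and 5.92 in healthy and 5.22, 5.85 and 7.04 in DLBCL dogs (lowest, median, highest), a difference of 0.46 ± 0.19. USP37, which acts on cyclin A, differed by 0.33 ± 0.16 and 0.15 ± 0.17. USP12, a partner of WDR48, differed by 0.02 to 0.28 on 4 probesets, and USP34, a large enzyme of Wnt signalling, by -0.10 and 0.17. USP36, a nucleolar enzyme, differed by 0.26 ± 0.11. USP40 differed by 0.06 to 0.23 on 3 probesets. USP35, USP43, USP45 and USP46 had 1 probeset each and differed by 0.06, 0.07, 0.07 and -0.11. USP44, a mitotic checkpoint enzyme, differed by 0.03 to 0.20 on 4 probesets and USP26 by 0.04, and the groups overlapped on each.

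In all, 4 members had every DLBCL dog above every healthy dog, 3 of USP14 and 1 of USP15, and 2 had every DLBCL dog below, of USP9X and USP11. Over all probesets 0.572% and 1.08% were separated in these directions. When each gene was taken by its probeset of highest mean, 10 of 44 genes were called higher and 7 lower, beside 20.4% and 15.1% of 15115 genes. With the mean of a gene's probesets the counts were 11 and 2, beside 23.7% and 12.7%. The 2 lower genes were USP9X and USP11. The lower USP9X mean came from 1 probeset, Cfa.5320.1.A1_at, at -3.64, while its other probesets differed by 0.19, -0.13 and 0.01. USP11 was called lower on each of its probesets. USP4, USP19, USP20, USP21 and USP48 were called lower by the first choice only.

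Naive and relapsed tumours were also each set beside the healthy dogs, which both comparisons share. Against healthy dogs 30 members were called higher and 7 lower in 16 naive arrays, beside 19% and 13.5% of all probesets. In 7 relapsed arrays 17 were higher and 8 lower, beside 11% and 9.82%. USP9X on Cfa.5320.1.A1_at differed by -3.71 ± 0.27 in naive and -3.46 ± 0.28 in relapsed tumours. USP14 on Cfa.17913.1.S1_s_at differed by 1.20 ± 0.13 and 1.14 ± 0.15, and USP11 on Cfa.3886.1.A1_at by -0.96 ± 0.11 and -0.86 ± 0.12. Of USP14 the naive arrays read 7.56 to 8.67 and the relapsed ones 7.65 to 8.34, and of USP11 they read 9.40 to 10.5 and 9.49 to 10.4. USP10 on CfaAffx.30526.1.S1_s_at differed by 0.97 ± 0.09 and 0.77 ± 0.13, and its lowest relapsed array, 8.76, lay within the healthy range. USP1 on CfaAffx.28718.1.S1_at differed by 0.72 ± 0.11 and 0.56 ± 0.14, USP5 on Cfa.17427.1.S1_s_at by 0.98 ± 0.15 and 0.88 ± 0.20, and USP15 on Cfa.17280.1.S1_s_at by 0.69 ± 0.11 and 0.60 ± 0.14. USP4 on Cfa.12988.1.A1_at differed by -0.19 ± 0.08 and -0.39 ± 0.08, and USP20 on Cfa.10095.1.A1_s_at by -0.58 ± 0.23 and -0.62 ± 0.11.

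The comparison of relapsed with naive tumours played no part in choosing the family, and no member passed its threshold, nor did any of the 43035 probesets (0.0% called in either direction). An unadjusted p under 0.05 was reached by 6 of 118 members, beside 4.78% of all probesets, and by 2 to 8 members in 12 alternative settings, with 3 left without sample 12, 13 or 18. All 6 were lower in relapsed tumours, and 4 of them were the 4 probesets of USP4. Among all 118 members only 42 were higher in relapsed tumours, and the median difference over all probesets was -0.02. Probesets of the same gene share each array's RNA, so those of USP4 are not separate observations. On Cfa.12988.1.A1_at USP4 was 10.76, 10.97 and 11.32 (lowest, median, highest) in naive and 10.65, 10.77 and 10.89 in relapsed arrays, a difference of -0.20 ± 0.07 with an adjusted p of 0.989 by limma. The groups overlapped. The other USP4 probesets differed by -0.39 ± 0.16, -0.26 ± 0.12 and -0.16 ± 0.07, at the same adjusted p. In the 1 dog sampled at both times USP4 was lower in the relapsed array on all 4 probesets, by -0.15, -0.27, -0.47 and -0.63. Both arrays of this dog are part of the comparison above, so its values are no separate evidence. The remaining probesets under 0.05 were of USP37 at -0.49 ± 0.17 on CfaAffx.22784.1.S1_s_at, and USP39, at -0.13 ± 0.06 on Cfa.2594.1.A1_at. In the dog sampled at both times 50 members were higher and 68 lower in the relapsed array, and USP9X on Cfa.5320.1.A1_at read 6.47 and then 7.24.

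Since USP9X, USP11 and USP26 lie on the X chromosome, DLBCL dogs were also compared by sex. No member passed the test between 13 males and 9 females, beside 0.00232% of all probesets in each direction, and 11 members had an unadjusted p under 0.05, beside 8.96% of all probesets. USP9X on Cfa.5320.1.A1_at had means of 6.46 in males and 6.84 in females, a difference of -0.38 ± 0.24 (adjusted p = 0.628 by limma). USP11 on Cfa.3886.1.A1_at had means of 10.1 and 9.89, a difference of 0.18 ± 0.12, and USP26, a testis gene, differed by -0.01 ± 0.07. The smallest unadjusted p among members was that of USP13 on Cfa.15947.1.A1_at, which was higher in males by 0.48 ± 0.14 (adjusted p = 0.439).

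Members were then set against the mean of 6 mitosis genes (TOP2A, CDK1, CENPF, TTK, AURKA and KIF11) among the 22 DLBCL dogs alone. This slope was called rising for 4 members and falling for 1, beside 2.44% and 0.595% of all probesets, so the shares of members (3.39% and 0.847%) were near the background. USP2, which stabilises cyclin D1, rose by 0.68 ± 0.14 (SE) per log2 unit of the mitosis mean (adjusted p = 0.00603 by limma). USP5 rose by 0.46 ± 0.11 on Cfa.17427.1.S1_s_at and 0.37 ± 0.09 on CfaAffx.22525.1.S1_s_at (adjusted p = 0.0149 and 0.0245). USP39 rose by 0.30 ± 0.08 on CfaAffx.12360.1.S1_at (adjusted p = 0.0347), and USP11 fell by 0.38 ± 0.09 on Cfa.3886.1.A1_at (adjusted p = 0.0143). USP11 had slopes of -0.33 ± 0.09 and -0.31 ± 0.09 on its other probesets, which were not called. Without the 2 dogs farthest from the median, USP2 (0.88 ± 0.19, adjusted p = 0.0217) and USP11 (-0.50 ± 0.11, adjusted p = 0.0352) were called, and USP5 and USP39 were not. With naive or relapsed group as a covariate USP39 was not called (0.28 ± 0.08). With RIN as a covariate the call was kept by USP2, at 0.62 ± 0.15, and by no other member.

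**Figure D5:**
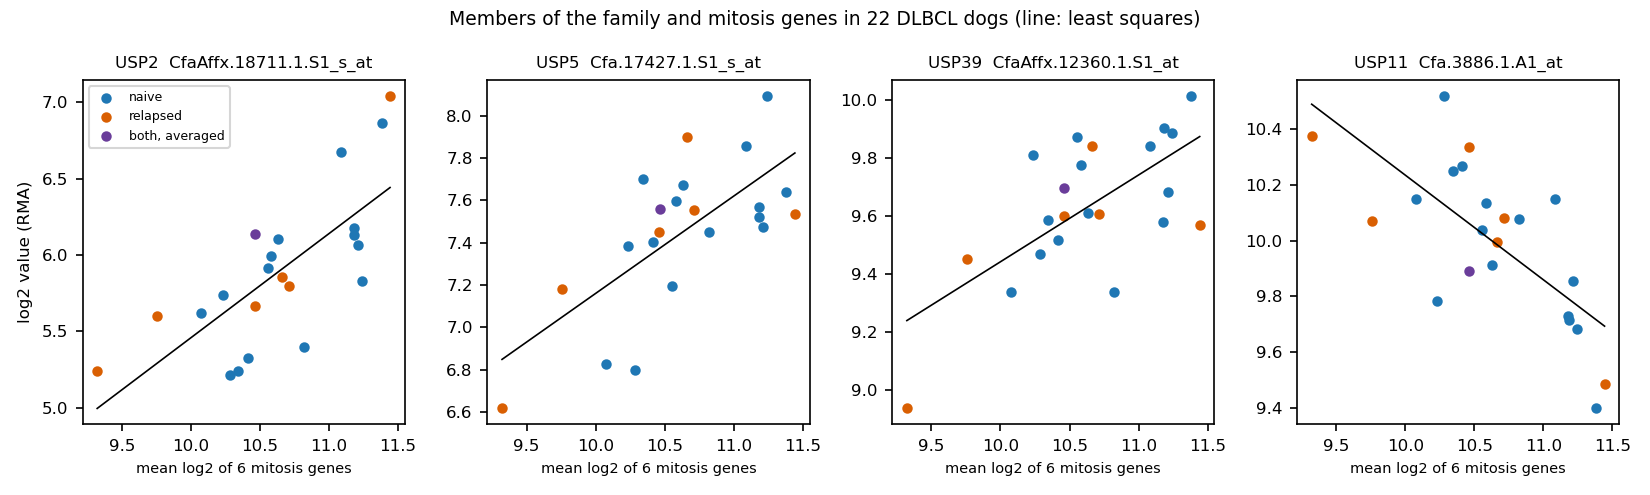
Log2 value (vertical axes, a separate scale per panel) of 1 probeset each of USP2, USP5, USP39 and USP11 against the mean log2 value of 6 mitosis genes (horizontal axes), 1 point per DLBCL dog (22 dogs), with the least squares line. USP2, USP5 and USP39 rise with the mitosis mean and USP11 falls.

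Probesets of the same gene did not always give the same call or the same sign of the difference from healthy nodes. Of the 36 genes with at least 2 probesets, 21 had a call. Only USP1, USP11 and USP38 (3 genes) were called in the same direction on all of theirs. Another 3 genes, USP4, USP19 and USP21, had calls in both directions. In the rest, some probesets missed the threshold and none was called the opposite way. The differences had the same sign on all probesets in 20 of the 36 genes. These counts were not worked out over all genes, so they have no background here. Among the DLBCL dogs the 137 pairs of probesets of one USP gene had a median correlation of 0.58, and 59.9% were above 0.5. The 23715 pairs of all 8257 genes had a median of 0.55, with 53.9% above 0.5. Correlations below 0 were found in 9 member pairs (6.57%) and 12.0% of all pairs. Probesets share each array's RNA, and a dim probeset carries little besides background, which is why these are descriptions only. Of the 118 members, 11 had a mean under the highest tag control.

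Within USP24 the 6 probesets other than Cfa.5395.1.A1_at had pairwise correlations of 0.75 to 0.97, and Cfa.5395.1.A1_at had 0.11 to 0.40 with them. Within USP14 the 3 called probesets had 0.62 to 0.88 among themselves and 0.00 to 0.27 with the uncalled one. The USP4 probesets called in opposite directions had 0.33 and 0.55 with each other in DLBCL dogs. In USP31 the 2 probesets had -0.42.

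Partners and other deubiquitinases were read by the probeset of highest mean of each gene in the same contrast. By that choice 20.4% of all genes were called higher and 15.1% lower. Those shares used adjustment over 15115 genes and the calls of the listed genes adjustment over all 43035 probesets, so the 2 are not exactly alike. Of 12 measured USP partners and substrates 6 were called higher and 0 lower. These included the USP1 substrates FANCI, at 1.66 ± 0.15, FANCD2, at 1.25 ± 0.18, and PCNA, at 0.73 ± 0.09, while WDR48, the activating partner of USP1, differed by -0.10 ± 0.06. ENY2 of the SAGA module rose by 0.59 ± 0.10, and GMPS, a partner of USP7, by 0.37 ± 0.11. MDM2 differed by -0.01 ± 0.10, and MCL1, a substrate of USP9X, by -0.17 ± 0.08, both without a call. Several of these genes are also used by dividing cells, and the part of the higher mitosis genes was not tested.

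Of 14 genes of the UCH, MJD and JAMM families 8 were called higher and 2 lower, beside the same 20.4% and 15.1% of all genes. This list takes in family members such as PSMD7, EIF3H and EIF3F, and whether each acts as a deubiquitinase was not examined. The proteasome's other deubiquitinases, PSMD14 and UCHL5, rose by 0.52 ± 0.08 and 0.56 ± 0.10, and UCHL3 rose by 0.80 ± 0.18. UCHL1, abundant in neurons and some B cells, fell by 1.44 ± 0.31 on the log2 scale. Of 15 OTU deubiquitinases and CYLD, 4 were called higher and 4 lower, with OTUD7B at -1.34 ± 0.26 and YOD1 at 0.57 ± 0.13. Neither CYLD, at 0.13 ± 0.14, nor TNFAIP3 (A20), at -0.14 ± 0.12, was called. Of 4 ubiquitin and E1 genes, UBA6 alone was called, at 0.53 ± 0.15.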

How the data were processed

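Lymph node RNA was amplified with the Ovation V2 system, biotin labelled and hybridised to Affymetrix Canine Genome 2.0 arrays by the authors, who deposited RMA log2 values. The submitters' processing notes name RMA, Affymetrix Expression Console and Partek. GEO's platform annotation, which can be old, pairs 29264 of the 43035 probesets with a single gene symbol, 439 with several and 13332 with none. The depth of an array is not a read count, and the number of dogs limits the precision. Arrays of a dog were averaged, and the groups were tested by linear models (limma 3.58.1, R 4.3.3), with Benjamini-Hochberg adjustment over all probesets and a threshold of 0.05. Slopes used the mean of a marker list as a covariate within DLBCL dogs. The fit was tested on simulated data. The members, gene lists and tests were chosen with earlier results of these data known. Named members were the 12 called probesets that rose most, the 12 that fell most (10 fell), all probesets of USP9X and of genes called in both directions, and up to 4 called in each other test. Other members and genes of the lists are examples chosen after their values were seen. RNA was extracted in batches that the labels do not give per array. Alternatives covered single arrays, dog as a random block, RIN, centring, quantile normalization, a filter on the lowest 25 percent, the methods' test, array day (18 DLBCL arrays, by the day in array file names of the study's supplement, matched on sample number, as the labels give none), left-out dogs and gene summaries. Leaving out DLBCL samples 5 and 18 was added after results were known.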

Additional observations from a re-analysis of the deposited data

Results flagged for a closer look

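For each of the named probesets, the 7 healthy dogs and the 7 relapsed arrays were searched for a value far from the rest of its group. In 9 of 66 such groups the highest or lowest value stood apart by Dixon's criterion, which chance gives in about 1 of 20 groups. In healthy dogs, healthy dog 1 was low on USP9X Cfa.5320.1.A1_at, at 8.97 against 10.14 to 10.74 in the others. Healthy dog 4 was high on USP21 Cfa.13390.1.A1_s_at, at 8.74 against 7.79 to 8.18, and low on USP5 Cfa.17427.1.S1_s_at, at 5.67 against 6.53 to 6.88.

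In relapsed arrays, sample 18, 1 of the tumours left out in the added counts, was low on 2 USP10 probesets. It read 7.72 against 8.29 to 8.68 on Cfa.19403.1.S1_s_at and 8.76 against 9.36 to 9.75 on CfaAffx.30526.1.S1_s_at. Sample 4, which had the highest mitosis mean of all DLBCL dogs (11.4), was low on USP11 Cfa.3886.1.A1_at, at 9.49 against 9.99 to 10.38, and high on USP2 CfaAffx.18711.1.S1_s_at, at 7.04 against 5.24 to 5.99. Sample 13 was high on USP21 CfaAffx.19817.1.S1_s_at, at 6.68 against 6.31 to 6.44. Sample 3 was high on USP9X Cfa.2884.1.A1_at, at 6.06 against 3.84 to 4.45.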

How the results depend on the processing

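Against healthy dogs, RIN as a covariate left 1 member higher and 1 lower in all DLBCL dogs, 3 and 1 in naive and 0 and 1 in relapsed tumours. Leaving out each healthy dog gave 26 to 28 higher and 5 to 12 lower, with the lowest count, 5, without healthy dog 4. Per gene, 11 were higher and 2 lower by the mean of the probesets, and 10 were higher by the probeset of highest mean. For the mitosis slope, RIN as a covariate left 1 rising and 0 falling, leaving out the 2 farthest dogs left 1 rising, and a filter on low values gave 2 falling. Apart from the replicate block, counts of called members under other settings were within 1.5 times those reported. Members called over 2-fold against healthy dogs were 0 upwards with RIN, 2 upwards without healthy dog 7 and 2 downwards with the replicate block, against 1 and 1. Over all probesets the mitosis slope was called for 277 rising and 56 falling without the 2 farthest dogs, against 1052 and 256, and for 615 and 164 with RIN. The T-cell slope was called for 31 rising without the 2 farthest dogs, against 50. The sexes differed on 3 higher and 42 lower in males with treatment group as a covariate, and on 1 and 2 with RIN, against 1 and 1. With RIN 850 probesets were higher and 914 lower in naive, and 275 and 769 in relapsed tumours. Healthy and DLBCL samples share sample numbers but are different dogs. With these numbers as a replicate block over 33 arrays 37 members were higher and 6 lower. Correlations of same-numbered arrays were -0.14 to 0.13, and 1 of 9 healthy arrays correlated best with its own number. Dog as a random block between naive and relapsed was not run, since it could not be fitted with 1 dog in both groups.

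Of the named differences, the following changed sign. With RIN as a covariate USP21 Cfa.13390.1.A1_s_at became 0.008 and USP19 CfaAffx.18105.1.S1_s_at 0.0083. With the replicate block USP21 Cfa.13390.1.A1_s_at became 0.0574, USP9X Cfa.2884.1.A1_at 0.145 and USP4 Cfa.5884.1.A1_at 0.0332. The last was 0.0357 on 33 separate arrays, by limma and by the methods' test, and -0.125 to 0.0813 without 1 healthy dog. USP9X Cfa.8952.2.A1_at became -0.0031 after quantile normalization and was -0.0319 to 0.0484 without 1 healthy dog. The causes were not tested.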
